A study of Rattus norvegicus with 6 samples.

Results

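The genes described here are the ligands and receptors of the interleukin-1 (IL-1) family in spinal cords of Lewis rats, namely the agonists Il1a and Il1b, the antagonist Il1rn, the receptors Il1r1 and Il1r2, the shared receptor subunit Il1rap, and Il18. They were taken by gene symbol, and every probe that the array lists under one of these 7 symbols was kept. The symbols were chosen with earlier results of these data known. This gave 11 of the 41012 probes of the array that are not controls. One array was measured for each of 6 conditions. The study set experimental neuromyelitis optica (ENMO) beside experimental autoimmune encephalomyelitis (EAE). Adult rats had received T cells specific for myelin basic protein (MBP) on day 0 and, on day 4, either human NMO-IgG (ENMO), human control IgG (EAEcoI) or PBS (EAEcoP). NMO-IgG is immunoglobulin of a patient with neuromyelitis optica, which binds the water channel aquaporin 4 on astrocytes. Rats of the other 3 conditions had no T cells and received NMO-IgG only, control IgG only, or nothing (healthy controls). The treated animals were killed 24 hours after the antibody or PBS. Each array held amplified RNA from formalin-fixed, paraffin-embedded cord sections pooled from 5 rats (3 rats for the healthy controls), so there was no biological replicate within a condition.

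IL-1α and IL-1β bind the type 1 receptor (Il1r1), which then recruits the accessory protein (Il1rap) and signals through MyD88 to NF-κB. The antagonist (Il1rn) occupies the same receptor without signalling, and the type 2 receptor (Il1r2) is a decoy that binds the ligand and has no signalling domain. IL-18 is a related cytokine with receptors of its own, and both IL-1β and IL-18 are made as precursors that inflammasomes process. In the inflamed spinal cord IL-1β comes mainly from macrophages, microglia and neutrophils.

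The probes are oligonucleotides of 60 bases. Those on which the results turn are given here 5′ to 3′ in lower case, in full for the receptor genes and by their first 30 bases for the others.

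Il1b probe in 10 spots, first 30 bases: gctgaaaatgaagagtttcatattgtgtgg
Il1b probe in 1 spot, first 30 bases: aagtcaggtctctcagagccataagaaaac
Il1rn brighter probe, first 30 bases: ccagagtatgtgttatttgtgctcatggaa
Il1r1 brighter probe: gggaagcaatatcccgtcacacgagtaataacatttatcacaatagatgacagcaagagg
Il1rap probe: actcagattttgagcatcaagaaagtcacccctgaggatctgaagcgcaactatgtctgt

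The array files place the Il1b probes at chr3:116964465-116964524 (the probe printed in 10 spots) and at chr3:116964716-116964775 (the probe printed in 1 spot), 251 bases apart on the minus strand. They name the genome build only as that of the rat. On this strand the probe in 10 spots lies further toward the 3′ end of the gene. The Il1rap probe is placed at chr11:76113640-76113699, and the Il1r1 brighter probe spans 2257 bases at chr9:39462421-39464677, so that its sequence crosses an intron. Whether the other probes lie in coding or untranslated sequence was not determined. Il1rn, Il1r1 and Il18 each had a pair of probes as well, called brighter and dimmer here by their mean signal. Their starts lay 3633, 10213 and 15571 bases apart, respectively. Probes of one gene differ in sequence and brightness, so levels were compared only within a probe.

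All values are normalized signal intensities (NSI), that is, processed Cy3 signals after quantile normalization over the 6 arrays, which ranged from 1.59 to 188852. A probe was called well above background where the scanner software gave this mark to at least 50% of its spots. The share of spots so marked was 44.4% to 60.2% on the arrays with T cells, highest in EAEcoP, and 35.4% to 41.7% on those without. The lowest NSI among probes well above background was 5.53 to 8.19 with T cells and 10.5 to 11.6 without. A probe could thus get this mark at a lower NSI on the arrays with T cells. Where a difference is given as "at least", it is one of mean log2 values. The dim side is then taken at the lowest NSI so marked on its array or at its own NSI, whichever is higher. The precision of a single spot was taken from 263 probes printed in 10 spots on each array, for which the difference of 2 arrays had an SD of 0.81 on the log2 scale, or 1.76-fold. It was 0.90 for values under an NSI of 32 and smaller for brighter ones. This spot spread is one of single spots, measures the array step alone and leaves out animals, sections and amplification. As to the tissue, 9 of 12 oligodendrocyte markers, among them Mbp and Mog, were well above background on all 6 arrays by their brightest probe. The same held for 4 of 12 astrocyte markers, while Aqp4 was so on 1 array and Gfap on 4 arrays.

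Of the 11 probes, 9 reached well above background on 1 array or more, and the brighter probe of Il1rn did so on all 6. The dimmer probes of Il1rn and Il1r1 were never well above background, with NSI of 2.31 to 5.96 and 3.11 to 8.59, and are not described further.

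**Figure D1:**
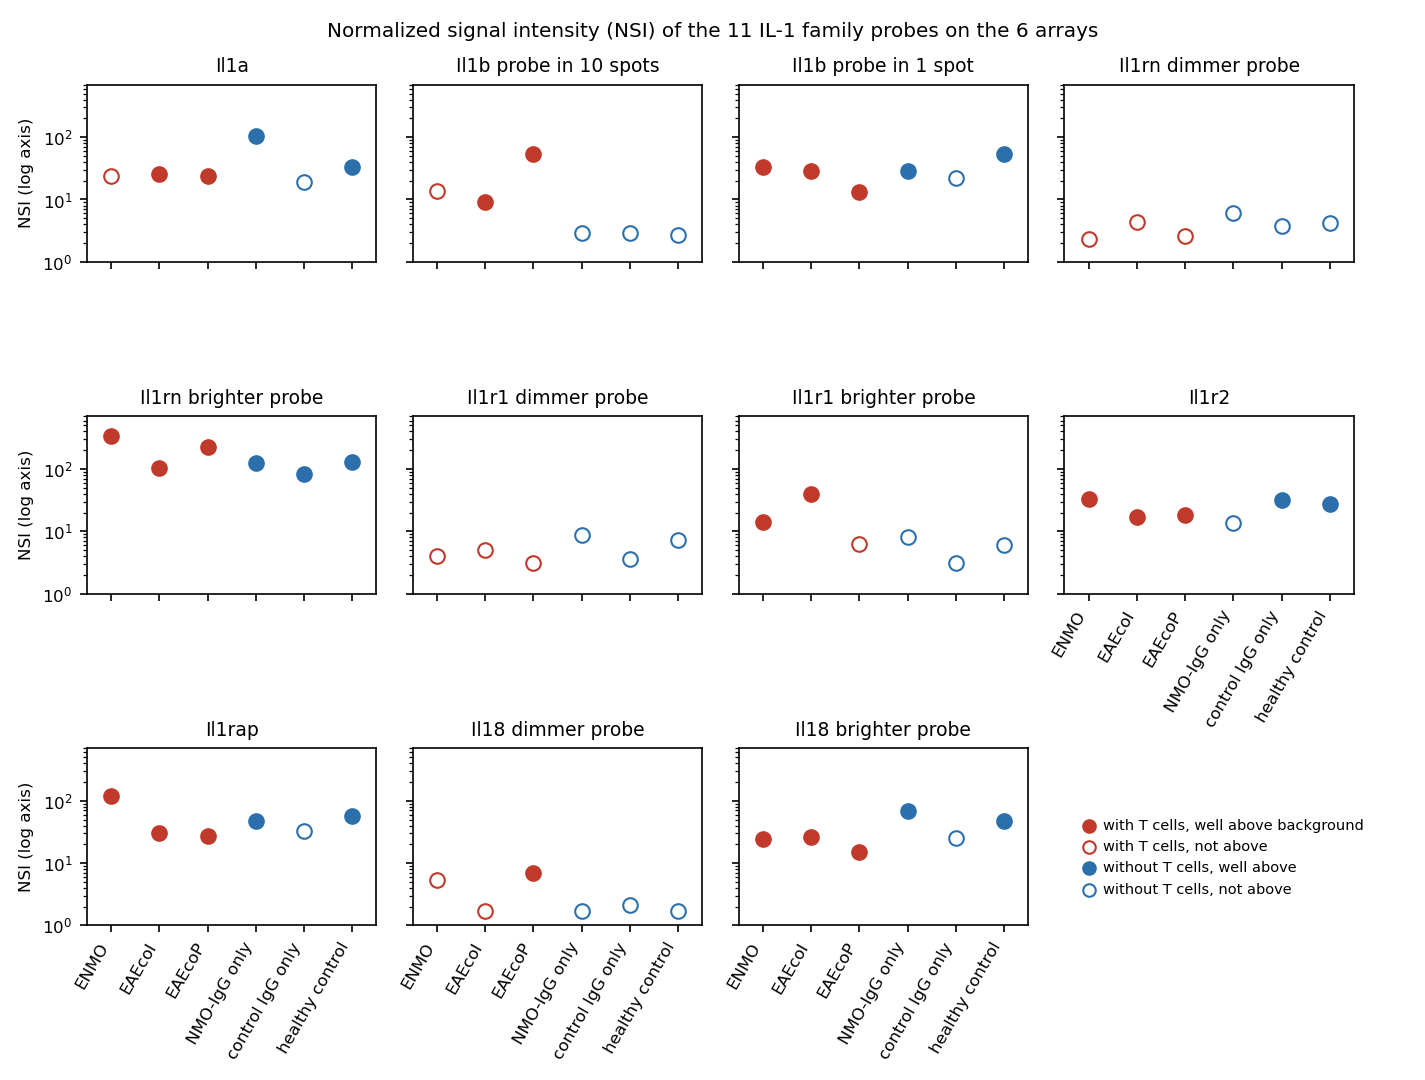
NSI (log axis) of each of the 11 probes on the 6 arrays, with 1 point per array. Filled points are well above background and open points are not. The Il1b probe in 10 spots is the only one with all 3 arrays with T cells above all 3 without, whereas the other Il1b probe is lowest in EAEcoP.

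When the 3 arrays with T cells were compared to those of rats that had none, no member passed the test. The fit was limma on log2 NSI with Benjamini-Hochberg adjustment over all 27468 probes that reached well above background on any array. It called 0 probes in all (0%), and 3149 probes (11.5%) had an unadjusted p under 0.05. Antibody and slide differences are part of the spread within each side. Of the 9 member probes, 1 had all 3 arrays with T cells above all 3 without, and 0 had them all below. The same was true of 11.3% and 6.79% of all probes.

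This single probe was the Il1b probe printed in 10 spots. It was well above background only in EAEcoI and EAEcoP, so it passed the filter through the side where it was high. Il1b encodes IL-1β, the secreted agonist of the family. In ENMO its NSI was 13.5, compared to 9.25 in EAEcoI and 52.9 in EAEcoP. Without T cells it was 2.88 with NMO-IgG only, 2.95 with control IgG only and 2.69 in healthy controls. Hence EAEcoP was highest, ENMO and EAEcoI followed, and the 3 arrays without T cells were alike and not well above background. The gaps in log2 NSI were 1.97 from EAEcoP to ENMO and 1.65 from EAEcoI to the highest array without T cells. Both were larger than the spot spread, and no other gap between neighbours in this order was. For the second gap no fold can be given, because EAEcoI lay below the lowest NSI that counts as well above background on the arrays without T cells. The spot spread is one of single spots, whereas this probe averages 10. At 8 of 10 shared array positions ENMO was above EAEcoI, with a mean log2 difference of 0.54 ± 0.62 (SD).

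The 10 spots show how firm these levels are within an array. In EAEcoP the spots lay between 43.0 and 70.7, and 10 of 10 were well above background. In EAEcoI they lay between 7.39 and 14.8 with 9 of 10 well above background, and in ENMO between 7.80 and 22.4 with 4 of 10. Thus ENMO had a mean above that of EAEcoI but fewer spots well above background. The lowest NSI that any probe with this mark had was 8.19 for ENMO and 6.23 for EAEcoI. On the arrays without T cells 0 spots were well above background. With control IgG only, 1 of the 10 spots carried the scanner's outlier mark and was dropped.

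When spots at the same array position were compared, Il1b was higher with T cells at 10 of 10 positions for NMO-IgG, at 9 of 9 for control IgG and at 10 of 10 for no antibody. Since the spots without T cells were at background, no size is given for these differences. Positions are repeats of one RNA pool and not animals, so no test was made on them. EAEcoP was above ENMO and above EAEcoI at 10 of 10 positions, with a mean log2 difference of -2.49 ± 0.37 (SD, n = 10 positions) for EAEcoI minus EAEcoP.

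**Figure D2:**
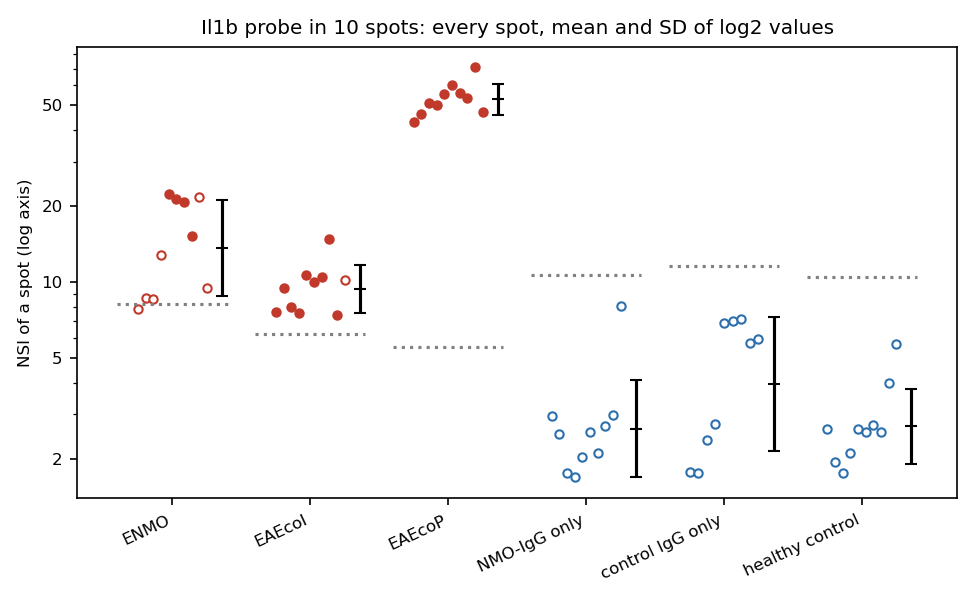
NSI (log axis) of every spot of the Il1b probe printed in 10 spots, by array. Filled spots are well above background, bars give the mean and SD of the log2 values, and the dotted line is the lowest NSI of any probe well above background on that array. EAEcoP stands alone between 43.0 and 70.7, and all spots without T cells lie below their line.

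By the limma fit the log2 difference of Il1b between the sides was 2.72 ± 0.69 (SE, 3 arrays against 3), with an unadjusted p of 0.0028 and an adjusted p of 0.203. Since the dim side was below background, the ratio of means (25.2 over 2.84) is not given as a fold. By mean log2 values the difference was at least 1.72-fold over all arrays and at least 5.03-fold for EAEcoP against healthy controls. With normexp background correction and its offset of 50 the log2 ratio of means was 0.49, and without background correction it was 0.83, in place of 3.15. Without EAEcoP it was 2.001.

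The Il1b probe in 1 spot did not show this order. ENMO had an NSI of 33.6, EAEcoI of 29.1 and EAEcoP of 13.2, while the NSI was 28.3 with NMO-IgG only, 22.2 with control IgG only and 53.0 in healthy controls. It was thus lowest in EAEcoP, where the other probe was highest, and highest in healthy controls, where the other probe was not above background. Its log2 difference for T cells was -0.45 ± 0.60 (SE) with an adjusted p of 0.776 in limma. It was well above background on 5 of 6 arrays, and no gap between neighbours in its order was beyond the spot spread. The deposited data do not tell which of the probes reports Il1b mRNA better in amplified RNA of fixed tissue.

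Il1a encodes IL-1α, an agonist that is active as made. The arrays with T cells were alike, with an NSI of 23.5 (ENMO), 26.1 (EAEcoI) and 23.9 (EAEcoP). Without T cells it was 105 with NMO-IgG only, 19.4 with control IgG only and 32.8 in healthy controls. The array with NMO-IgG only stood apart, 3.21-fold above healthy controls, and the other 5 arrays did not differ from their neighbours beyond the spot spread. The log2 difference for T cells was -0.73 ± 0.67 (SE), with an adjusted p of 0.674 in limma. Leaving out the array with NMO-IgG only moved the log2 ratio of means from -1.10 to -0.09.

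Il1rn encodes the antagonist, and its brighter probe was well above background on every array. This probe had an NSI of 333 (ENMO), 104 (EAEcoI) and 222 (EAEcoP) with T cells, compared to 125 with NMO-IgG only, 84.3 with control IgG only and 131 in healthy controls. ENMO and EAEcoP were thus above all arrays without T cells, whereas EAEcoI lay among them. The ratio of means was 1.94, the log2 difference in limma 0.83 ± 0.59 (SE), and the adjusted p 0.593. With the same antibody on both sides, T cells went with a 2.66-fold higher NSI for NMO-IgG, 1.24-fold for control IgG and 1.70-fold for no antibody, of which the first was beyond the spot spread. Over all probes, T cells went with values higher by more than this spread in 19.7%, 29% and 36.4% of probes for these antibodies, and lower in 17.9%, 19.9% and 32.5%. The slides bear on this, since on slide 1 (ENMO and EAEcoP against control IgG only) the ratio was 3.29 and on slide 2 (EAEcoI against NMO-IgG only and healthy controls) it was 0.815. Slide and condition cannot be told apart for single arrays.

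Il1r1, the signalling receptor, was well above background on only 2 arrays in its brighter probe. With T cells the NSI was 14.3 for ENMO, 40.2 for EAEcoI and 6.30 for EAEcoP, and without them it was 7.996 with NMO-IgG only, 3.11 with control IgG only and 6.05 in healthy controls. EAEcoI was highest and ENMO followed, whereas EAEcoP lay among the arrays without T cells. The lower bound for EAEcoI over control IgG only was 3.48-fold, that for ENMO over NMO-IgG only 1.35-fold, and no ratio is given for EAEcoP. The limma difference for T cells was 1.53 ± 0.74 (SE) with an adjusted p of 0.459. The signals of neighbouring spots deviated by 0.39 on the log2 scale in EAEcoI and by -0.48 with control IgG only, and with the local trend removed the log2 ratio of means for T cells was 1.58 in place of 1.83. It was 0.13 with normexp, 0.36 without background correction and 0.85 without EAEcoI.

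Il1r2, the decoy receptor, reached an NSI of 32.8 with NMO-IgG, 17.0 with control IgG and 18.1 with PBS in rats that had T cells. Without T cells it was 13.7 with NMO-IgG only, 31.2 with control IgG only and 27.3 in healthy controls. These levels overlapped between the sides, no gap between neighbours was beyond the spot spread, and the adjusted p for T cells was 0.968 in limma.

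Il1rap, the subunit shared by several receptors of the family, reached an NSI of 121 in ENMO but 30.3 in EAEcoI and 26.8 in EAEcoP. Without T cells the values were 47.9 with NMO-IgG only, 32.9 with control IgG only and 56.3 in healthy controls. Only ENMO stood apart, and EAEcoI and EAEcoP were the lowest. As a consequence the ratio of T cells to none went in opposite directions within antibodies, at 2.53 for NMO-IgG and 0.476 for no antibody. The limma difference for T cells was 0.05 ± 0.67 (SE), with an adjusted p of 0.982.

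Il18 was detected in part. On its brighter probe ENMO had an NSI of 24.0, EAEcoI of 26.5 and EAEcoP of 15.1, compared to 68.9 with NMO-IgG only, 25.3 with control IgG only and 48.0 in healthy controls. NMO-IgG only and healthy controls were thus highest, and the next array, EAEcoI, was lower than healthy controls by 0.86 on the log2 scale, close to the spot spread. The limma difference for T cells was -1.04 ± 0.57 (SE) with an adjusted p of 0.506. The dimmer probe was well above background in EAEcoP only, at an NSI of 7.03, against 1.72 to 5.28 on the other arrays. Its log2 difference of 1.11 ± 0.62 (SE) had the opposite sign and an adjusted p of 0.513 in limma.

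**Figure D3:**
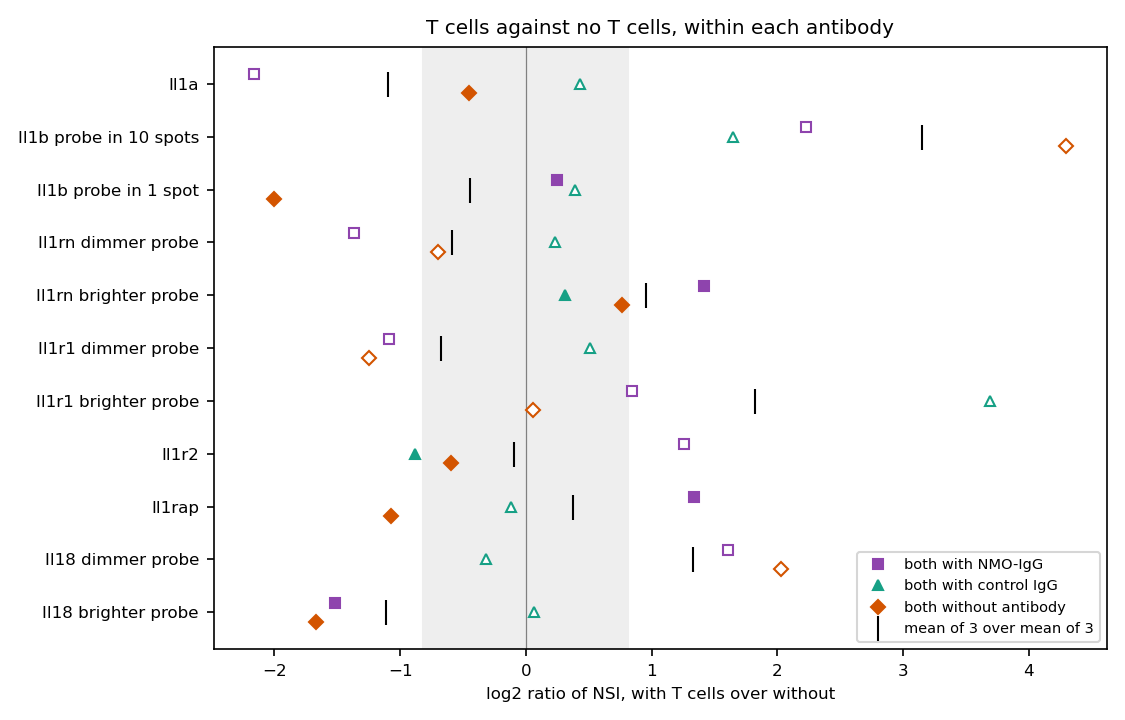
Log2 ratio of NSI with T cells over without, for each probe and within each antibody. Filled symbols have both arrays well above background, open symbols do not and give no measured ratio, bars are ratios of the means of 3 arrays each, and the grey band is the spot spread of ±0.81. The brighter Il1rn probe, measured in every pair, lies at 1.41, 0.31 and 0.76.

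Over the 9 member probes the median log2 ratio of T cells to none was 0.38, beside 0.03 over all probes. Of these, 4 were higher and 2 lower by more than the spot spread, while 23.5% and 14.1% of all probes were. The higher ones were the Il1b probe in 10 spots, the brighter probes of Il1r1 and Il1rn and the dimmer probe of Il18, and the lower ones were Il1a and the brighter Il18 probe. For the dimmer Il18 probe no fold can be given, and its log2 ratio of 1.33 was 0.03 with normexp and 0.14 without background correction. The Il1b probe in 10 spots, the brighter Il1r1 probe and the dimmer Il18 probe were well above background only on arrays with T cells. They thus passed the filter through the side where they were high, which fixes part of the higher count and of the median. These counts describe a few probes, some of one gene, and were not tested.

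The comparison of ENMO with EAE asks what NMO-IgG adds in animals that have T cells. Here ENMO was set against the mean NSI of EAEcoI and EAEcoP. No member passed limma's test, in which 0 of 27439 probes were called (0%) and 1582 (5.77%) had an unadjusted p under 0.05. By size, 3 of the 9 member probes were higher in ENMO and 1 was lower by more than the spot spread, compared to 16.9% and 29.2% of all probes. These were Il1rap, the brighter Il1rn probe and Il1r2 on the higher side and the Il1b probe in 10 spots on the lower side.

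Il1rap had the largest ratio of the family. It had been picked in the study for its level on the ENMO array, so its ratio of 4.23 is a description and was not tested here. The probe lies at the edge of the array (column 1 of 85), and on the ENMO array its neighbours were brighter than the array's median by 0.87 on the log2 scale, while on the other arrays they deviated by -0.48 to 0.07. With this local trend removed, the log2 ratio of ENMO over EAE was 0.87 in place of 2.08. With normexp it was 0.34.

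For Il1rn the ratio of ENMO over EAE was 2.04, and the log2 difference from EAEcoI (1.68) was larger than that from EAEcoP (0.59). The latter was within the spot spread. For Il1r2 the ratio was 1.88, with 1.94 over EAEcoI and 1.82 over EAEcoP, both just beyond the pooled spot spread. The log2 difference from EAEcoP (0.86) was within the spread of dim probes (0.90). Of all probes, 30.6% lay above and 33.9% below EAEcoP by more than this spread. Thus only for Il1rap, and by the pooled spread for Il1r2, did ENMO exceed each of the EAE arrays by more than the spread. The deposited intensity of Il1r2, taken without normalization between arrays, gave a log2 ratio of 0.07 in place of 0.91.

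Il1b went the other way in its probe in 10 spots, by mean log2 values at least 1.64-fold lower in ENMO than in EAE. This rests on EAEcoP. Against EAEcoP the log2 difference was -1.97, and against EAEcoI it was 0.54, so that the direction turned. Il1a (0.942), the brighter Il18 probe (1.15) and the Il1b probe in 1 spot (1.59) had ratios of ENMO over EAE within the spot spread. Il1r1 lay below EAEcoI and above EAEcoP.

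**Figure D4:**
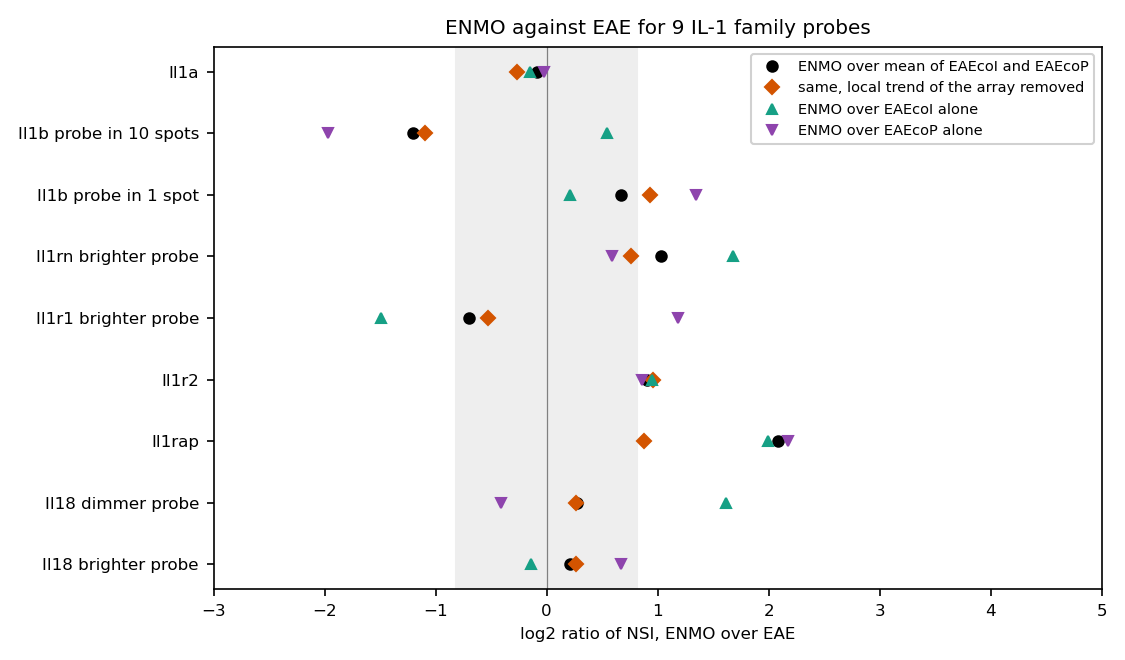
Log2 ratio of NSI in ENMO over EAE for the 9 probes that were detected on some array, against the mean of both EAE arrays (circles), after removal of the local trend (diamonds) and against each EAE array alone (triangles). The grey band is the spot spread. Il1rap moves from 2.08 to 0.87 when the local trend is removed, and the Il1b probe in 10 spots changes side between the EAE arrays.

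NMO-IgG could be set against control IgG both with and without T cells. The additive limma fit called 0 of 27467 probes (0%), with 363 (1.32%) at an unadjusted p under 0.05, and 0 members passed. In rats without T cells NMO-IgG went with a higher Il1a, at least 5.44-fold, and a higher brighter Il18 probe, at least 2.73-fold, while Il1r2 was at least 2.27-fold lower. The brighter Il1r1 probe was not above background on either array. With T cells the same ratios were at least 1.11-fold lower for Il1a, 0.907 for Il18 and 1.94 for Il1r2, and Il1r1 was 2.80-fold lower with NMO-IgG. Il1rn was higher with NMO-IgG on both backgrounds, 3.19-fold with T cells and 1.48-fold without, the latter within the spot spread. Il1rap was so too, 3.99-fold with T cells and at least 1.45-fold without, the latter again within the spread. The first of these holds the ENMO array, where the neighbours of this probe were bright. The Il1b probe in 1 spot was higher by 1.16-fold with T cells and at least 1.27-fold without, both within the spread. Of all probes, 18.8% were higher and 22.1% lower beyond this spread with T cells, and 21% and 17.9% without. Both pairs crossed the slides, in opposite senses. With T cells NMO-IgG was on slide 1 and control IgG on slide 2, and without T cells it was the reverse. The differences between the backgrounds rest on single arrays, cannot be told apart from slide and were not tested.

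Control IgG against no antibody shows what human IgG of any kind could add. Here, too, limma called 0 of 27467 probes (0%; 671, or 2.44%, at an unadjusted p under 0.05). In rats with T cells the Il1b probe in 10 spots was 5.72-fold lower and the brighter Il1rn probe 2.13-fold lower with control IgG than with PBS, while Il1r1 was at least 6.38-fold higher. Among all probes 30.7% were higher and 29.6% lower beyond the spot spread in this pair, which were also on different slides. Without T cells, Il1rn was 1.55-fold lower with control IgG than in healthy controls, within the spot spread, and the Il1b probe in 10 spots was not above background on either array. In this pair, also on different slides, 17.4% of all probes were higher and 19.9% lower beyond the spread.

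Genes around these ligands and receptors were examined in 6 lists, each gene by its brightest probe. None of them passed limma's test for T cells in any list. An unadjusted p under 0.05 was found for 1 of 10 detected genes of proximal signalling and for 3 of 27 IL-1 response genes. In the other lists it was found for 0 of 4, 0 of 6, 0 of 11 and 0 of 18 detected genes, beside 11.5% of all probes. Among other ligands of the family 4 of 5 measured genes were well above background on some array, with a median log2 ratio of -0.23, and Il33, an alarmin of oligodendrocytes and astrocytes, was the brightest. It had an NSI of 1542 for ENMO, 627 for EAEcoI and 682 for EAEcoP, and of 1210 to 1673 without T cells, so that the EAE arrays were below the others. Among other receptors and binding proteins (6 of 8 detected) the median was -0.41. In 2 of these 6 genes all arrays with T cells were below all without, beside 6.79% of all probes. They were Il1rl2, the receptor of IL-36, and Il1rapl1, neither of them well above background on all arrays of a side.

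For the inflammasome and processing enzymes 11 of 16 measured genes were detected, with a median log2 ratio of -0.13. Casp1, which cleaves the IL-1β precursor, was not well above background on any array, and Nlrp3, the sensor of an inflammasome, was so on 1. Nek7, a kinase that Nlrp3 requires, was 1.64-fold lower with T cells without overlap between the sides in its brightest probe, but another of its probes was higher, again without overlap (23.0 to 34.9 against 4.28 to 22.3). Pycard, the inflammasome adaptor, gave 340 NSI units in ENMO against 76.4 in EAEcoI and 61.0 in EAEcoP, but 364 with control IgG only. The second Pycard probe was dimmer and was lower with T cells without overlap, at 12.7 to 26.2 against 28.5 to 29.3. Pycard was chosen after its values were seen.

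Among proximal signalling steps 10 of 14 measured genes were detected, with a median of 0.34. Map3k7, which encodes the kinase TAK1, was lower with T cells, with NSI of 7.44, 8.24 and 2.55 against 20.8 to 52.8, at least 5.36-fold (adjusted p = 0.18 in limma). For the steps of NF-κB and MAPK signalling 18 of 21 were detected with a median of -0.20. By the brightest probes, 1 gene, Map2k7, had no overlap between the sides. The brightest Mapk8 probe overlapped, with a log2 ratio of -0.65. Its other probes were higher with T cells without overlap, at 44.6 to 106 against 4.16 to 6.77 and at 7.62 to 80.1 against 2.28 to 7.06. They were well above background on 3 arrays and on 1. Of the IL-1 response genes 27 of 30 were detected, with a median of 0.01, and 3 had all arrays with T cells above all without, a share close to the 11.3% of all probes. Lcn2, which encodes the iron-chelating lipocalin 2, reached 73.3 (ENMO), 55.2 (EAEcoI) and 308 (EAEcoP) NSI units, against 12.7 to 17.98 without T cells, at least 7.44-fold (adjusted p = 0.19). Its order across arrays with T cells was that of the Il1b probe in 10 spots. The collagenase Mmp13 was 3.79-fold higher, and Saa4 1.495-fold. Bdkrb1, a bradykinin receptor, was the 1 gene with all arrays with T cells below, at 1.499-fold. The cytokine Il6 overlapped between the sides, with NSI of 6.65 to 39.4 with T cells and 26.5 to 74.7 without. Lcn2 and Mmp13 were highest in EAEcoP, as was the Il1b probe in 10 spots. Il6, named after its values were seen, was lowest there, as was the other Il1b probe. Against healthy controls, 36.4% of all probes were higher and 32.5% lower in EAEcoP beyond the spot spread. The share of genes with such orders was not determined.

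**Figure D5:**
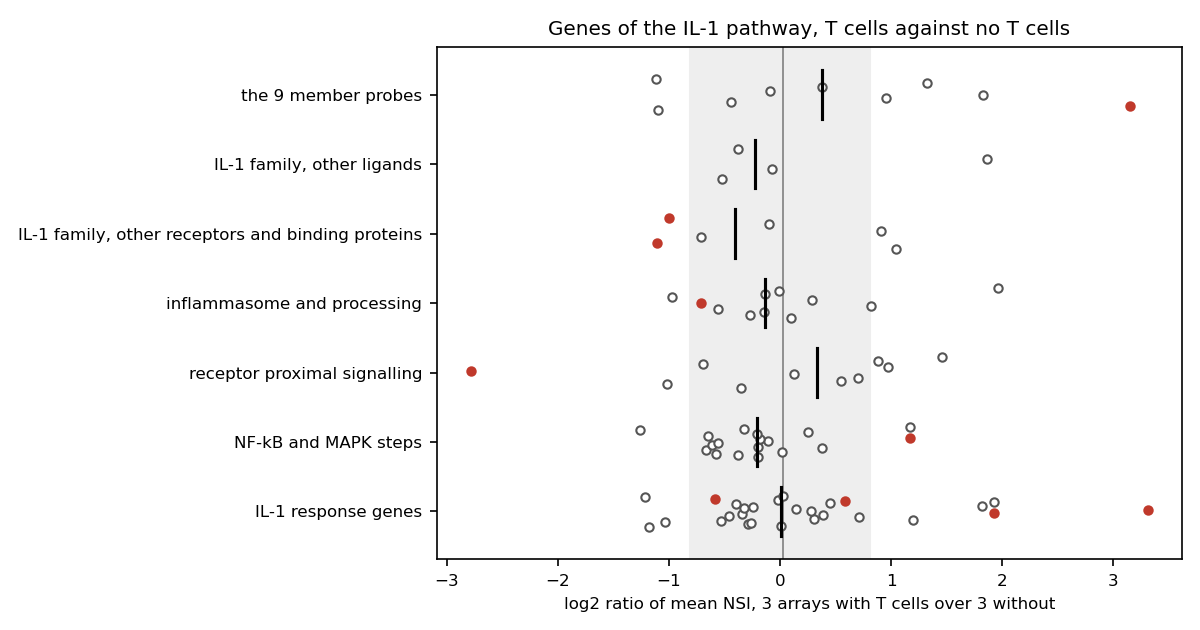
Log2 ratio of mean NSI, arrays with T cells over arrays without, for the 9 member probes and for the detected genes of 6 lists of the pathway. Filled points have no overlap between the sides, black bars are medians, the grey line is the median of all probes (0.03) and the grey band is the spot spread. The medians of the lists lie between -0.41 and 0.34.

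Some cell type markers also differed between the arrays. In bulk tissue, fewer cells of a type and less RNA per cell cannot be told apart. Of 22 detected myeloid markers 6 had all arrays with T cells above all without, and 7 had an unadjusted limma p under 0.05, beside 11.3% and 11.5% of all probes. Summed over these markers, ENMO had an NSI of 22526, EAEcoI of 8104 and EAEcoP of 7205, compared to 3415 to 5199 without T cells. In ENMO most of this sum came from Tyrobp (14042), Fcgr3 (3080) and Fcgr1 (2321), and sums add probes of unequal brightness. Lyz2, the lysozyme of macrophages and neutrophils, was 126, 93.6 and 657 against 4.84 to 9.74, whereas Itgam was well above background on 1 array and Aif1 on 2. The Lyz2 order was that of the Il1b probe in 10 spots but not of the other Il1b probe. Lyz2 was named after its values were seen, and Tyrobp, Fcgr3, Fcgr1 and Cd68 of the same list were highest in ENMO instead. The share of genes with the Lyz2 order was not determined. The brightest probes of Csf1r, Cx3cr1 and Ptprc overlapped between the sides, while another Csf1r probe did not (15.0 to 27.5 with T cells against 5.87 to 12.1). Neutrophil markers had summed NSI of 539 to 753 with T cells and 658 to 760 without, and S100a8, Camp and Mmp8 were well above background on 1, 0 and 0 arrays. Single markers differed in direction. S100a9 (at least 1.95-fold) and Lcn2, which is also in this list, were higher on all arrays with T cells. Ncf1 (4.89-fold) and S100a8 (at least 4.01-fold) were lower, without overlap. These were 2 higher and 2 lower of 12 detected neutrophil markers, beside 11.3% and 6.79% of all probes. T cell markers summed to 1688 to 2975 against 1242 to 1618, with Cd3e at background on all arrays. The part of these cells in the levels of Il1b and Il1rn was not tested.

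The brighter Il1rn probe was the 1 member probe well above background on all arrays, so that its profile could be compared with that of other genes. Among 5226 such probes with a RefSeq accession, the most alike over the 6 arrays by Pearson's r of log2 NSI were Ifi30 (0.96), Myh14 (0.96) and Arhgdib (0.96), and 11 probes had an r over 0.9. Ifi30, a lysosomal thiol reductase of antigen-presenting cells, gave 397 NSI units for ENMO, 20.9 for EAEcoI and 119 for EAEcoP, against 28.9 to 39.3 without T cells. All points share the same 6 RNA pools, and with so few of them many genes can be alike.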

How the data were processed

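Per the labels and the study's methods, RNA of pooled paraffin sections was amplified once and hybridised with Cy3 to 6 one-colour Agilent whole rat genome arrays on 2 slides. The deposited scanner files hold background-corrected signal intensities for 45018 spots, and a second deposited table with 1 intensity per target was used only as an alternative. Here, control and outlier spots were dropped, log2 values were averaged over the spots of each probe and quantile-normalized, the step the authors name. Tests were made with limma 3.58.1 in R 4.3.3 (two-sided, Benjamini-Hochberg, threshold 0.05), checked on simulated data. Ratios are of mean NSI, except those given as "at least", which are of mean log2 values. Other normalizations, background corrections, filters, blocks and the removal of local trends (5 rows and columns each way) were tried as alternatives. Antibody ratios of single arrays have no replicate check. The number of arrays limits the precision, and p-values measure the spread between arrays of different antibody and slide. Members and lists were chosen with earlier results of these data known. From each list, at most the 2 largest rises and 2 largest falls without overlap and well above background on 1 side were named, beside genes counted singly. Other genes named from the lists (Il33, Pycard, Casp1, Nlrp3, Il6, Mapk8 and the cell markers) were chosen after their values were seen. Probe sequences and positions are those of the scanner files.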

Additional observations from a re-analysis of the deposited data

Results flagged for a closer look

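For Il1rap the effect of T cells had opposite signs within antibodies. The log2 ratio of T cells over none was 1.34 with NMO-IgG and -1.07 without antibody, each beyond the spot spread of 0.81 and with both arrays well above background. Each value rests on a pair of single arrays, and the difference between them was not tested. The ENMO array enters the first ratio, where neighbouring spots of the Il1rap probe were brighter by 0.87 on the log2 scale. The other members had no such pair of opposite ratios in which all arrays were well above background. With 1 array per condition, no search for outlying samples was possible.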

How the results depend on the processing

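The conditions carry no replicate numbers, each being 1 array, so no block by replicate was possible. With antibody as a block, which pairs each array with T cells with that of the same antibody without, the T cell comparison again called 0 probes. Leaving out 1 array in turn, the probes called ranged from 0 to 213 for T cells (213 without ENMO and 3 without EAEcoI), from 0 to 252 for NMO-IgG against control IgG (252 without control IgG only, 7 without EAEcoI) and from 0 to 310 for control IgG against no antibody (310 without control IgG only, 65 without EAEcoI). With slide as a block, 53 and 40 probes were called for the antibody comparisons, the latter fit chosen after seeing the data. All other counts stayed at 0. No member probe was called under any setting, the lowest adjusted p being 0.132 for Il1b and T cells without ENMO. Of 362 member ratios under alternatives 301 moved by less than the spot spread. Of the ratios beyond the spot spread, 9 changed sign, each with an array left out. Ratios within the spread changed sign under other settings too, such as Il1r1 in ENMO against EAE (-0.70, and 0.26 without background correction). For Il1b in ENMO against EAE the log2 ratio ranged from -1.97 to 0.54 (the latter without EAEcoP), and for Il1a in NMO-IgG against control IgG from -0.15 (without NMO-IgG only or control IgG only) to 2.44. For control IgG against no antibody, Il1b ranged from -2.52 to 0.14, Il1r1 from -0.96 to 2.67 and the dimmer Il18 probe from -2.03 to 0.32, with the sign turned where EAEcoI or EAEcoP was left out. The cause was not tested. ENMO over EAEcoI or EAEcoP alone is the same as leaving out the other array. The deposited values per target were used only for members with 1 probe per target.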
